A study of Arabidopsis thaliana with 18 samples.

Results

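The first hour of light was examined in seedlings of wild type Arabidopsis thaliana that had been raised on MS medium in the dark for 7 days. The comparison used 6 of the 18 libraries of the series, 3 from seedlings given 1 h of light and 3 from seedlings taken at 0 h, still in the dark. The members are therefore samples, taken by the time of light that their labels give. Every gene with enough reads over the 18 libraries was tested, 20569 genes in all, against 19518 when the 6 libraries were filtered alone. Polyadenylated RNA was sequenced from whole seedlings, so fewer cells of a type and less RNA per cell cannot be told apart. The labels give neither the colour nor the strength of the light, nor the accession of the plants. Both groups share the genotype, the medium and the days in the dark, and no group was kept dark for the extra hour. Light, the added hour of age, the time of day and the move itself can therefore not be told apart. Nothing says that the replicates came from separate sowings or plates, so the spread between libraries may be technical. A p-value in the main fit rests on a spread estimated over all 18 libraries, not over these 6 alone.

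A seedling that germinates in darkness grows a long hypocotyl, keeps an apical hook and closed pale cotyledons, and depends on its reserves. In the dark the COP1/SPA ubiquitin ligase removes factors that promote greening, such as HY5, while the phytochrome-interacting factors (PIFs), a family of bHLH proteins, keep growth genes active. Phytochromes, cryptochromes and the UV-B receptor UVR8 reverse this on illumination: PIFs are degraded, COP1/SPA is restrained, and a cascade of transcription factors starts the greening programme.

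Levels are given as the deposited FPKM, fragments scaled to the length of the gene and the size of the library. Differences are log2 fold changes of 1 h of light over dark, with their standard error (SE), from edgeR's quasi-likelihood fit to the expected counts, and adjusted p-values use the Benjamini-Hochberg method over all tested genes. A gene was called, and is said below to have risen or fallen, where its adjusted p was under 0.05 and its level differed by 1 or more on the log2 scale. By this rule 753 genes rose, 3.66% of those tested, and 429 fell, 2.09%, so that 5.75% were called in either direction. Without 1 h replicate 2 the number that fell was 280, of which 269 were among the 429. The 3 libraries of one group lay wholly above or below the other 3 for 5706 genes, 27.7% of those tested, and for 1163 of the 1182 called genes. Some named genes are uncertain in their reads. Expected counts were not whole numbers in most libraries with reads for ABCI21, AT1G05675, AT1G74675, AT4G38825, AT5G18030, CBF1, CBF2, cPT4, GH3.3, GUN4, HSP101, LNK1, OHP1, OHP2, PIF6, PORB, PRR9, RVE7, SAUR19, SAUR23, SAUR24, SPA3, UBQ10, UBQ11, UBQ14 and XTH15, which is seen where reads are divided among genes, and these are called mostly fractional. The loci of AT1G74675, AT4G38825, BBX20, BBX32, CAO, CHS, COL6, cPT4, CT-BMY, DIN10, DREB2A, GUN4, HSP101, LNK1, OHP1, OHP2, PIF6, PORB, RCA, SPA3, SPA4, STH, STO, TCH2, UBQ14, WRKY33 and XTH15 overlap another gene, and without a stated strand setting their reads may be mixed with those of the neighbour. Large changes were split about evenly, although more genes rose than fell. On the log2 scale 68 genes rose and 70 fell by 3 or more, while 13 rose and 14 fell by 5 or more. In both groups the genes that rose had the larger share of the summed FPKM. They held 7.45% of it after 1 h of light and 2.37% in the dark, and the genes that fell held 0.641% after 1 h of light and 1.85% in the dark.

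**Figure D1:**
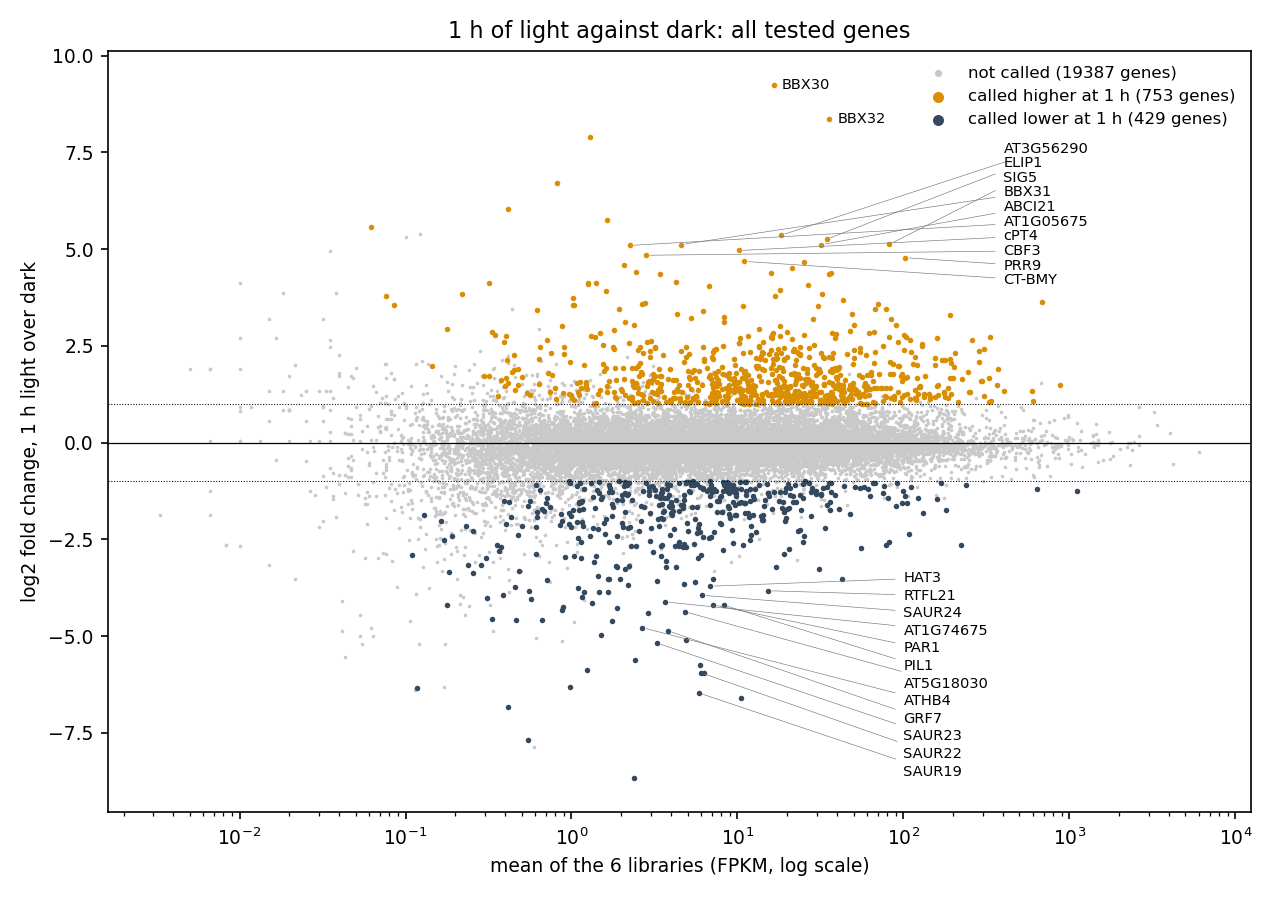
Log2 fold change (1 h of light over dark) against the mean FPKM of the 6 libraries on a log axis, for all tested genes. Orange points are the 753 genes that rose, dark blue points the 429 that fell, grey points were not called, dotted lines mark a log2 fold change of 1 in size, and the labelled genes are the 12 highest and 12 lowest that passed the naming rule.

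Depth was even, with between 22410156 and 22442713 summed expected counts in the libraries of 1 h of light and between 22408394 and 22551159 in the dark ones. The dark group was the more variable. The median SD of log2 CPM (counts scaled to library size) was 0.15 after 1 h of light and 0.279 in the dark, and dark replicate 3 correlated with the other dark libraries at r = 0.9459 and 0.9443 over genes, against 0.9827 between the other pair. That library was also high in seed storage transcripts: the 9 seed reserve markers summed to between 4045 and 7828 FPKM after 1 h of light, and to 1714, 655.9 and 11820 FPKM in dark replicates 1, 2 and 3. Its part in the results was not tested, but without it 767 genes rose and 431 fell, of which 619 and 325 were among those called with all libraries. Markers of other cell types were called in 1 case. None of 5 tested root hair markers was called, with a list sum of at most 0.84 FPKM in any library, and 1 of 7 stomatal lineage markers, SPCH, fell. All 7 stomatal markers had log2 fold changes below 0, between -1.63 and -0.44. Their median was -0.93, against -0.0632 over all tested genes. SPCH was at 0.35, 0.17 and 0.25 FPKM after 1 h of light and at 0.75, 0.62 and 1.16 FPKM in the dark, and its call was lost without dark replicate 3, at an adjusted p of 0.126 in edgeR's test, and without 1 h replicate 2 or 3. The stomatal list summed to between 4.56 and 7.15 FPKM after 1 h of light and to between 6.92 and 14.54 FPKM in the dark, highest in dark replicate 3.

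Transcription factor genes featured in both directions. Of 1206 tested genes annotated with transcription factor activity in the deposited tables, 93 rose and 63 fell, 7.71% and 5.22%, against 3.41% and 1.89% of the other tested genes. Among ERF and DREB factors 13 of 52 rose and none fell, among heat shock factors 6 of 21 rose and none fell, and among MYB factors 11 of 92 rose and 1 fell. Among homeobox factors the order was turned round, with 3 of 64 that rose and 13 that fell, and of 37 bZIP factors named by that symbol, which leaves out HY5 and HYH, none rose and 3 fell, BZIP34, BZIP61 and bZIP52. The 3 homeobox factors that rose were 1 without dark replicate 1, dark replicate 3, 1 h replicate 1 or 1 h replicate 2. The count for heat shock factors was 3 without dark replicate 3, and that for MYB factors was 5, 6 and 7 without 1 h replicate 1, 1 h replicate 2 and dark replicate 3. These families share members with lists below, where the same genes are counted again. ATHB2, ATHB4, HAT3 and ATHB17 are also HD-ZIP class II genes. CBF1, CBF2 and CBF3 are also in the rapid stress list, and HSFA2 is also in the heat shock list.

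The B-box genes, which encode zinc finger proteins that work with or against HY5 and CONSTANS, included some of the largest rises. Of 27 tested members 11 rose and 4 fell, and the median log2 fold change was 0.63, against -0.0632 over all tested genes. BBX30 (AT4G15248), a short single B-box protein, was listed at 37.48, 36.45 and 25.15 FPKM after 1 h of light, against 0.14, 0 and 0 FPKM in the dark. These are 1376 counts against 2, a ratio of 690 with a 95% counting interval from 191 to 5703, and every library of 1 h of light was far above every dark one. BBX32, an inhibitor of light responses that acts through other B-box proteins, was at 91.44, 58.5 and 63.96 FPKM after 1 h of light and at 0.1, 0.1 and 0.45 FPKM in the dark. It rose by 8.36 ± 0.32 on the log2 scale (SE, adjusted p = 2.53e-10 in edgeR's test), and its locus overlaps another gene. BBX31, the closest relative of BBX30, was at 9.78, 8.52 and 8.49 FPKM after 1 h of light and at 0.29, 0.33 and 0.16 FPKM in the dark, a log2 fold change of 5.12 ± 0.28. In each of these 3 genes the dark level was close to 0 and the groups were far apart.

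The B-box genes that already had transcript in the dark had smaller log2 fold changes. STO (BBX24), which restrains HY5, was at 469.87, 476.72 and 481.35 FPKM after 1 h of light and at 82.13, 69.01 and 139.95 FPKM in the dark, and its relative STH (BBX25) was at 63.1, 62.97 and 55.45 FPKM after 1 h of light and at 4.31, 2.37 and 6.54 FPKM in the dark. Their log2 fold changes were 2.36 ± 0.20 and 3.85 ± 0.25, and both loci overlap another gene. BBX28, another partner that lowers HY5 activity, averaged 146.5 ± 12.4 FPKM after 1 h of light and 39.3 ± 25.2 FPKM in the dark (SD, n = 3 each). BBX22, which promotes greening together with HY5, averaged 66.3 ± 1.8 FPKM after 1 h of light and 22.3 ± 9.7 FPKM in the dark (SD, n = 3 each). BBX18, BBX19, BBX29 and COL1 also rose, with log2 fold changes between 1.60 and 3.11. The members that fell included factors known to promote photomorphogenesis. BBX20 was at 5.94, 6.04 and 5.98 FPKM after 1 h of light and at 20.61, 22.32 and 24.92 FPKM in the dark, with no overlap between the groups. BBX23 had no read in any library of 1 h of light and 77 counts in the dark, so its level was at least 25.6-fold lower against a floor of 3 counts over the group, while DESeq2 gave it an adjusted p of 0.423. COL6 and BBX27 fell as well, BBX27 by 1.14, which became -0.91 and so lost the call without dark replicate 2.

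The light signalling list includes a pair of bZIP factors and the GATA and GLK factors of greening. HY5 (AT5G11260), which binds G-box elements in the promoters of light-responsive genes, was at 181.21, 172.63 and 172.65 FPKM after 1 h of light and at 27.4, 32.54 and 19.31 FPKM in the dark. HYH, its homologue, was at 60.01, 55.06 and 39.07 FPKM after 1 h of light and at 4.9, 6.4 and 6.18 FPKM in the dark, a log2 fold change of 3.19 ± 0.18. CGA1 and GNC, GATA factors of chloroplast development, rose by 2.77 ± 0.31 and 1.65 ± 0.16, and GLK2, which drives antenna and chlorophyll genes, rose by 1.70 ± 0.15. RPT2, a phototropin partner in phototropism, was the member of this list with the highest level, at 323.71, 322.12 and 303.22 FPKM after 1 h of light and at 88.27, 64.69 and 100.68 FPKM in the dark. Of 20 tested light signalling factors, 6 rose and 4 fell. The largest falls were in PIL1 and PAR1, atypical bHLH genes known as markers of shade. PIL1 was at 1.08, 0.81 and 0.67 FPKM after 1 h of light and at 15.21, 22.9 and 8.92 FPKM in the dark. PAR1 averaged 0.71 ± 0.263 FPKM after 1 h of light and 13.5 ± 3.78 FPKM in the dark (SD, n = 3 each), and for both genes every lit library was below every dark one. PKS4, a phytochrome kinase substrate, fell by 2.25 ± 0.25. FHL, which carries phytochrome A into the nucleus, fell by 1.13 ± 0.32, and its call was lost without any one of 4 libraries, dark replicate 2 or any 1 h replicate, with values between -0.75 and -1.16.

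Some genes that hold light signalling back rose. Among 17 tested repressors, 7 rose and 1 fell. SPA1, a partner of COP1, was at 91.11, 88.55 and 92.61 FPKM after 1 h of light and at 18.66, 21.29 and 14.3 FPKM in the dark, a log2 fold change of 2.35 ± 0.16. SPA3 and SPA4 rose by 2.19 ± 0.16 and 1.89 ± 0.20, and both loci overlap a neighbour. COP1 itself averaged 19.4 ± 1.02 FPKM after 1 h of light and 11.9 ± 0.47 FPKM in the dark (SD, n = 3 each), higher in every lit library but below the fold change minimum. RUP2, which returns UVR8 to its inactive form, was at 25.25, 16.78 and 17.69 FPKM after 1 h of light and at 2.18, 1.22 and 1.97 FPKM in the dark. RUP1, with the same role, rose by 1.85 ± 0.16. Among the PIFs, PIF8 rose by 1.69 ± 0.21. PIF7 also rose, by 1.134 ± 0.225, at 0.88, 1.23 and 1.2 FPKM after 1 h of light and 0.52, 0.3 and 0.74 FPKM in the dark. Its counts are mostly fractional and its locus overlaps another. In a fit of the 6 libraries alone, or with limma, 6 of the 17 repressors rose. PIF1, PIF4 and PIF5 were not called. PIF3 was at 20.27, 19.27 and 21.58 FPKM after 1 h of light and at 32.64, 24.83 and 34 FPKM in the dark. Its log2 fold change of -0.54 ± 0.13 is under the minimum. The member that fell was PIF6, whose locus overlaps another, and its -1.06 became -0.97 and -0.98 without 1 h replicates 2 and 3, which ended the call.

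Photoreceptor genes were mostly not called. Of 14 tested members 1 rose and 1 fell, and the median log2 fold change was 0. CRY3, a cryptochrome of the DASH type found in plastids and mitochondria, was at 13.87, 13.01 and 14.74 FPKM after 1 h of light and at 2.31, 2.55 and 2.79 FPKM in the dark, which gives 2.49 ± 0.25 on the log2 scale (SE, adjusted p = 5.22e-06 in edgeR's test). PHOT1, the main blue light receptor of phototropism, was at 45.71, 46.8 and 37.51 FPKM after 1 h of light and at 106.27, 86.94 and 80.5 FPKM in the dark. Its log2 fold change of -1.03 ± 0.14 was just past the minimum and became -0.91, -0.98 and -0.91 without dark replicate 1, dark replicate 2 and 1 h replicate 3. PHYA, the phytochrome that is abundant in etiolated tissue, was lower in every library of 1 h of light, at 166.24, 166.8 and 165.42 FPKM against 280.39, 272.4 and 228.85 FPKM in the dark, a difference of -0.62 ± 0.13 that did not reach the minimum.

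**Figure D2:**
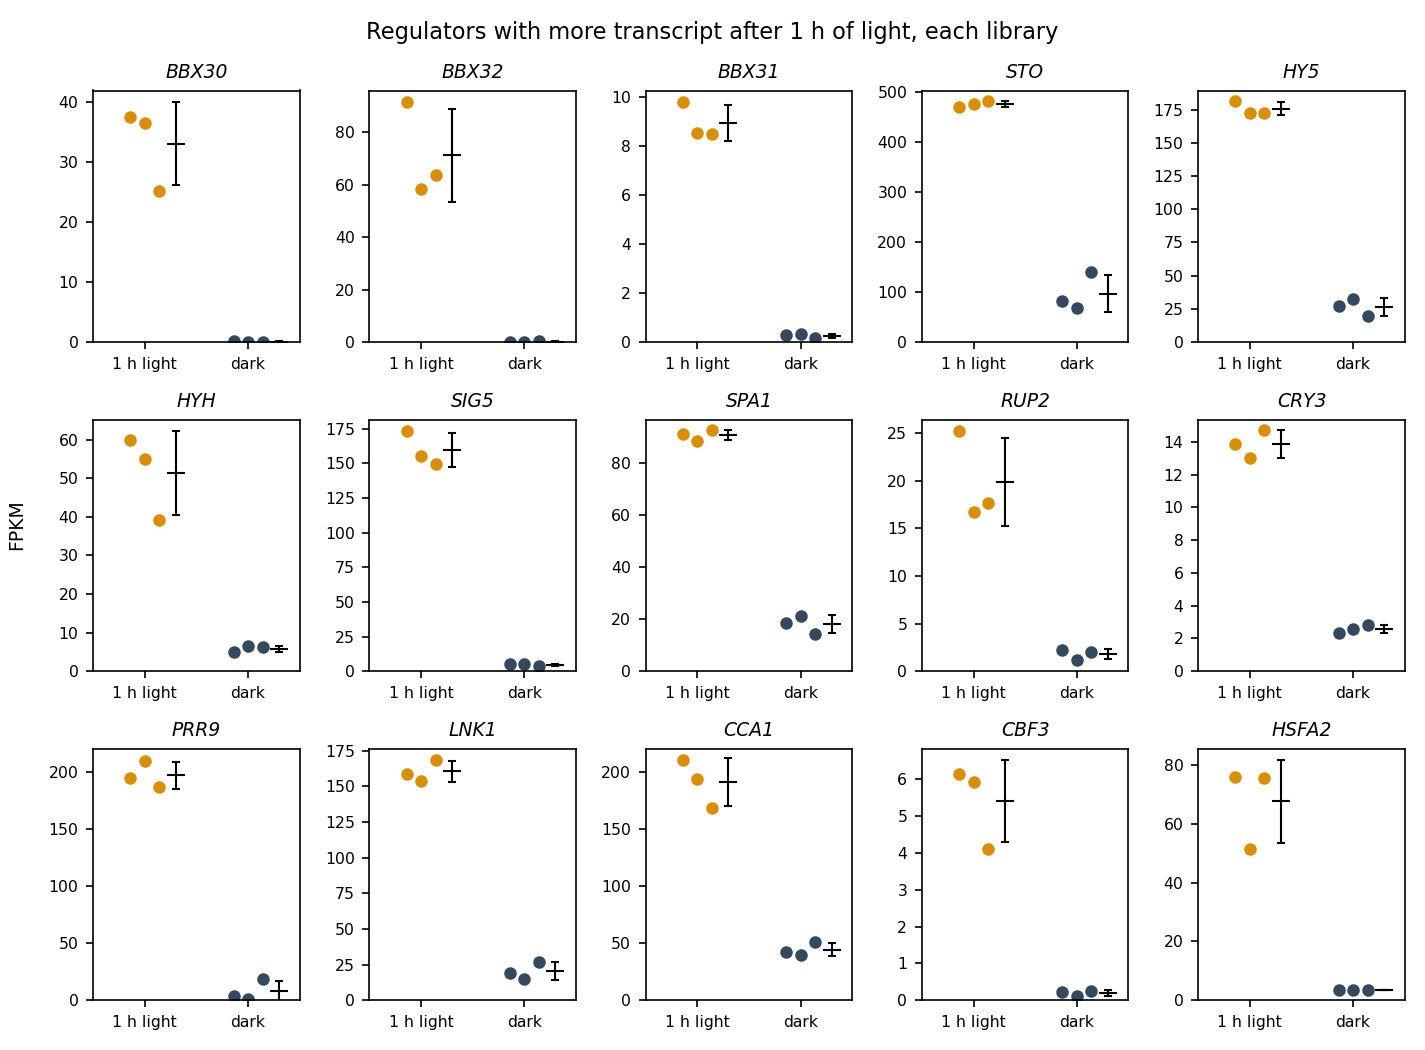
FPKM of 15 regulators that rose, in each library: orange points are the 3 libraries of 1 h of light, dark blue points the 3 dark ones, and the black mark is the mean with its SD. In every panel the 3 libraries of 1 h of light are above the 3 dark ones.

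The circadian clock list had the largest share of members that rose among the gene lists, 57.1%. Of 21 tested clock genes 12 rose and none fell, with a median log2 fold change of 1.42, and between 12 and 13 rose when single libraries were left out. PRR9 (AT2G46790), a morning pseudo-response regulator that represses CCA1 and LHY, was at 194.65, 209.87 and 186.63 FPKM after 1 h of light and at 3.96, 1.27 and 18.17 FPKM in the dark. Its log2 fold change was 4.78 ± 0.64, its expected counts are mostly fractional, and dark replicate 3 was the highest dark library. CCA1, a morning MYB factor, was at 210.82, 194.08 and 169.08 FPKM after 1 h of light and at 42.14, 39.99 and 50.88 FPKM in the dark. LNK1, a coactivator that works with the RVE factors, was at 158.4, 154.01 and 168.77 FPKM after 1 h of light and at 19.4, 14.7 and 26.93 FPKM in the dark, at a locus that overlaps another. LHY, RVE1, RVE2, RVE7 and RVE8, all relatives of CCA1, rose too, with log2 fold changes between 1.42 and 2.51. Members that act in the afternoon or evening also rose. PRR5 was at 86.24, 85.55 and 81.1 FPKM after 1 h of light and at 14.94, 16.06 and 18.3 FPKM in the dark, GI had a log2 fold change of 1.90 ± 0.17, and ELF4 one of 2.34 ± 0.39. CDF1 (AT5G62430), a repressor of CONSTANS, rose by 2.68 ± 0.23. PRR7 was higher in every lit library, at 122.4, 131.99 and 130.02 FPKM against 64.86, 71.08 and 68.92 FPKM in the dark, but its log2 fold change of 0.95 ± 0.20 was under the minimum.

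Promoter sequence was read for the 300 bases before each RefSeq gene start on assembly TAIR10.1, and searched for elements known to be bound by the factor families above. The motifs searched were the G-box CACGTG, the PIF box CACATG, the I-box GATAAG, the core of the evening element AATATCT, the W-box TTGACC or TTGACT, and the auxin element TGTCTC, each on both strands. None of them contains another. The G-box was present in 16.5% of the 753 promoters of genes that rose, 7.7% of 427 promoters of genes that fell and 8.2% of 20458 promoters of all tested genes. The order was different for the PIF box, with 15.4%, 23.9% and 13.2% in the same order. Shares were closer to each other for the I-box (14.7%, 15.7% and 14.7%), the evening element core (14.5%, 13.8% and 11.7%), the W-box (34.7%, 31.9% and 32.1%) and the auxin element (13.1%, 15.2% and 12.8%). A match is a description of these letters and shows no binding. The G-box was found in 5 of the 12 called clock genes, 3 of the 6 called flavonoid genes, 3 of the 9 called photoprotection genes, 1 of the 6 called HD-ZIP class II genes, 1 of the 10 called light signalling factors, 1 of the 15 called B-box genes, and none of the 8 called repressors or the 29 called SAUR genes.

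Promoters of 6 strongly changed genes from different groups are shown because they hold these elements. Each line gives the 300 bases before the gene start, 5′ to 3′ on the strand of the gene, with G-boxes and PIF boxes in capitals (CATGTG is the PIF box on the opposite strand). Those of BBX30 (chr4:8708541-8708840, plus strand), ELIP1 (chr3:8085670-8085969, minus strand), PRR9 (chr2:19232307-19232606, plus strand) and F3H (chr3:19024892-19025191, plus strand) belong to genes that rose. Those of SAUR19 (chr5:5963406-5963705, minus strand) and GA20OX2 (chr5:21056882-21057181, minus strand) belong to genes that fell. The windows of F3H and SAUR19 also overlap another annotated locus.
BBX30: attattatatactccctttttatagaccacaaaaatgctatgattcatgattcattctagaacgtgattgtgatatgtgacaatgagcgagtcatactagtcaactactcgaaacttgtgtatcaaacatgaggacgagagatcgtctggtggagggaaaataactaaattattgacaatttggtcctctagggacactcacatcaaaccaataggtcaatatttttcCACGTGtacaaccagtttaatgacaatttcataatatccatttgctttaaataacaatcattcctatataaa
ELIP1: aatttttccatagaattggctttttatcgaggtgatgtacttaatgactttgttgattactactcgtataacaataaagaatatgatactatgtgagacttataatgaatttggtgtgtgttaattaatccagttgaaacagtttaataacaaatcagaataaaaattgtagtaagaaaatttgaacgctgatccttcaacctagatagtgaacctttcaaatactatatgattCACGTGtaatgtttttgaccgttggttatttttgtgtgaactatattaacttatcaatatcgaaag
PRR9: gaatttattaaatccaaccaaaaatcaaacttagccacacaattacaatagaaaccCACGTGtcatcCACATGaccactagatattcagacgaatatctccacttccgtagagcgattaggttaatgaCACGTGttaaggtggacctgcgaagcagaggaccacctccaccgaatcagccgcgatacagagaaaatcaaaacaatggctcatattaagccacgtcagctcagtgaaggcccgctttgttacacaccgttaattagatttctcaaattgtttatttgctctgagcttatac
F3H: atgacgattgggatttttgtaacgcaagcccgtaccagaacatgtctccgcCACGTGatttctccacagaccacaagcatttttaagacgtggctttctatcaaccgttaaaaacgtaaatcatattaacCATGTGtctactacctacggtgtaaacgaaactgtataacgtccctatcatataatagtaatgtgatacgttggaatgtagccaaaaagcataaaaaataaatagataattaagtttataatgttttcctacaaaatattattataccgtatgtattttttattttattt
SAUR19: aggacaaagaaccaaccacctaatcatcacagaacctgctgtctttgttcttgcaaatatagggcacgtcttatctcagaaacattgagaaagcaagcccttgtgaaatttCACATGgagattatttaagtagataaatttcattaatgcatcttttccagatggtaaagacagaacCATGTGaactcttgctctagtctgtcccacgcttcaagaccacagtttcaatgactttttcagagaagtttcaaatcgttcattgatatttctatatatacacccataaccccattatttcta
GA20OX2: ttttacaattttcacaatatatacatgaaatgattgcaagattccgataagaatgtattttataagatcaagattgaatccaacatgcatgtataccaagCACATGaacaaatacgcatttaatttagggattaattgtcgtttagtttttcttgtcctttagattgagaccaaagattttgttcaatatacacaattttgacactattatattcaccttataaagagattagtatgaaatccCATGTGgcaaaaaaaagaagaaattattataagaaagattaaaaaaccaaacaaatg
The G-box starts 72 bases before the gene start in BBX30, 66 bases in ELIP1 and 249 bases in F3H. PRR9 holds a pair, 244 and 172 bases before its start, with a PIF box 233 bases before it, and F3H has a PIF box 170 bases before its start. SAUR19 has PIF boxes 189 and 123 bases and GA20OX2 200 and 57 bases before the start, and neither holds a G-box.

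Genes of elongation growth were prominent among those that fell. The HD-ZIP class II genes, homeobox factors that promote growth in shade, had 5 of 9 members that fell and 1 that rose, ATHB17. ATHB2 (AT4G16780), the founding shade gene of the class, was at 6.62, 5.31 and 5.32 FPKM after 1 h of light and at 45.72, 60.4 and 63.76 FPKM in the dark, a fall of 3.26 ± 0.19 on the log2 scale (SE, adjusted p = 1.55e-08 in edgeR's test). ATHB4 was at 0.13, 0.22 and 0.19 FPKM after 1 h of light and at 4.13, 7.33 and 4.05 FPKM in the dark. HAT3 was at 1.27, 1.02 and 0.59 FPKM after 1 h of light and at 11.65, 17.63 and 9 FPKM in the dark. HAT1 and HAT2 fell by 2.54 ± 0.46 and 1.69 ± 0.20. The groups did not overlap in any of these 5 genes.

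The SAUR genes, whose small proteins keep plasma membrane proton pumps active and so promote cell expansion, had many members that fell. Of 61 tested members 26 fell, 42.6% of the family against 2.09% of all tested genes, 3 rose, and the median log2 fold change was -1.91. Between 24 and 29 fell when single libraries were left out. SAUR19 (AT5G18010) was at 0.2, 0.09 and 0.1 FPKM after 1 h of light and at 11.35, 17.84 and 5.53 FPKM in the dark, a fall of 6.47 ± 0.65 on the log2 scale. SAUR22 was at 0.31, 0 and 0.25 FPKM after 1 h of light and at 12.1, 16.89 and 6.4 FPKM in the dark. For both genes the lowest dark library was replicate 3, and it was still far above every lit library. Many called members sat in runs of neighbouring genes. All 6 tested members on chromosome 5 between positions 5962773 and 5984308 fell, as did all 4 tested ones on chromosome 3 between 976715 and 983768, and all 4 and both tested ones of adjacent runs on chromosome 1, between 10301377 and 10308246 and between 10319732 and 10323239. In the other runs 3 of 4 fell on chromosome 4 between 18121526 and 18131284, 2 of 5 on chromosome 4 between 16577180 and 16599568, and 1 of 3 on chromosome 2 between 9083906 and 9090052. Members of a run are near-identical copies in part, counts of SAUR19, SAUR23, SAUR24 and AT5G18030 are mostly fractional, and these genes are not independent observations. AT4G38825 and AT4G34790 had no read after 1 h of light, and 146 and 43 counts in the dark, so they were at least 48.5-fold and 14.3-fold lower against a floor of 3 counts. The second of these calls was lost without any single library, with adjusted p-values in edgeR's test between 0.0506 and 0.102. The member with the largest rise was AT4G12410, at 6.42, 5.21 and 4.43 FPKM after 1 h of light and 1.7, 0.54 and 0.73 FPKM in the dark.

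The auxin signalling and supply genes that were called fell, with 1 exception. Among 25 tested Aux/IAA genes, repressors of auxin response that are themselves induced by auxin, 5 fell and none rose. IAA4 was at 16.14, 16.69 and 19.45 FPKM after 1 h of light and at 42.16, 42.42 and 53.58 FPKM in the dark. IAA29 was at 0.5, 0.46 and 1.05 FPKM after 1 h of light and at 8.39, 12.97 and 5.02 FPKM in the dark, a fall of 3.66 ± 0.54. IAA1 and IAA20 fell by 1.94 ± 0.30 and 2.22 ± 0.29. Among 17 tested genes of auxin synthesis, transport and conjugation 6 fell and 1 rose, and the 6 became 4 without dark replicate 1, 1 h replicate 1 or 1 h replicate 2. They included TAA1 and YUC3, enzymes of auxin synthesis, which fell by 2.22 ± 0.48 and 4.59 ± 0.82. PIN3, an efflux carrier that turns auxin flow sideways, was at 41.22, 30.98 and 37.42 FPKM after 1 h of light and at 94.14, 86.05 and 77.13 FPKM in the dark. The amido synthetases of auxin conjugation split. GH3.3 was at 1.87, 2.65 and 1.7 FPKM after 1 h of light and at 12.22, 22.1 and 8.51 FPKM in the dark. GH3.6 was at 59.38, 62.17 and 86.7 FPKM after 1 h of light and at 32.2, 24.15 and 22.01 FPKM in the dark, so the groups were apart in opposite directions.

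In the gibberellin list, the called enzymes divided by the step they catalyse. Of 18 tested members 2 rose and 4 fell, and the number that rose was 4 without dark replicate 3. Both that rose, GA2OX1 and GA2OX6, inactivate gibberellins. GA2OX1 was at 3.11, 2.87 and 3.63 FPKM after 1 h of light and at 0.1, 0.07 and 0 FPKM in the dark, a log2 fold change of 5.75 ± 0.60. GA2OX6 was at 24.97, 24.83 and 26.42 FPKM after 1 h of light and at 9.47, 9.73 and 5.88 FPKM in the dark. The biosynthetic enzymes GA20OX1, GA20OX2 and GA3OX1 fell. GA20OX2 was at 0.6, 0.42 and 0.21 FPKM after 1 h of light and at 4.43, 2.01 and 5.6 FPKM in the dark. GA20OX1 fell by 4.03 ± 0.88, and GA3OX1 fell by 2.83 ± 0.66, a call lost without dark replicate 2 (adjusted p = 0.0509 in edgeR's test) or 1 h replicate 3 (adjusted p = 0.0523 in edgeR's test). GAI, a DELLA protein that represses growth until gibberellin removes it, fell too, at 4.29, 4.33 and 3.93 FPKM after 1 h of light and 20.3, 19.67 and 24.57 FPKM in the dark.

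Brassinosteroid genes that were called all fell. Of 21 tested members 6 fell and none rose, and 2 had a log2 fold change above 0. Called members were downstream HLH factors that promote elongation, PRE1, PRE5, PRE6, BEE2 and BEE3, and BAS1, an enzyme that inactivates the hormone. PRE5 was at 0.15, 0 and 0.1 FPKM after 1 h of light and at 1.84, 2.29 and 0.94 FPKM in the dark. BAS1 was at 1.91, 2.17 and 2.47 FPKM after 1 h of light and at 9.33, 8.98 and 8.2 FPKM in the dark, a fall of 1.98 ± 0.19. The call of BEE3 was lost without 1 h replicate 2, at an adjusted p of 0.0514 in edgeR's test. In the list of ethylene and hook genes 1 of 22 rose and 3 fell. HLS1, which is required for the apical hook, was at 4.67, 5.05 and 4.55 FPKM after 1 h of light and at 11.74, 14.73 and 17.34 FPKM in the dark. Without 1 h replicate 3 its adjusted p in edgeR's test was 0.0502 and no member fell, 1 fell without 1 h replicate 1 or 2, and 2 rose without dark replicate 2 or 3. Of the enzymes that loosen cell walls, 5 of 25 tested XTH genes and 2 of 17 alpha-expansins fell and none rose. The expansin count was 1 without dark replicate 2, 1 h replicate 2 or 1 h replicate 3. EXPA8 was at 16.67, 13.2 and 13.48 FPKM after 1 h of light and at 118.66, 127.31 and 43.81 FPKM in the dark. XTH15 was at 51.67, 51.16 and 73.1 FPKM after 1 h of light and at 244.9, 261.88 and 644.78 FPKM in the dark, with its highest value in dark replicate 3, mostly fractional counts and an overlapping locus.

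**Figure D3:**
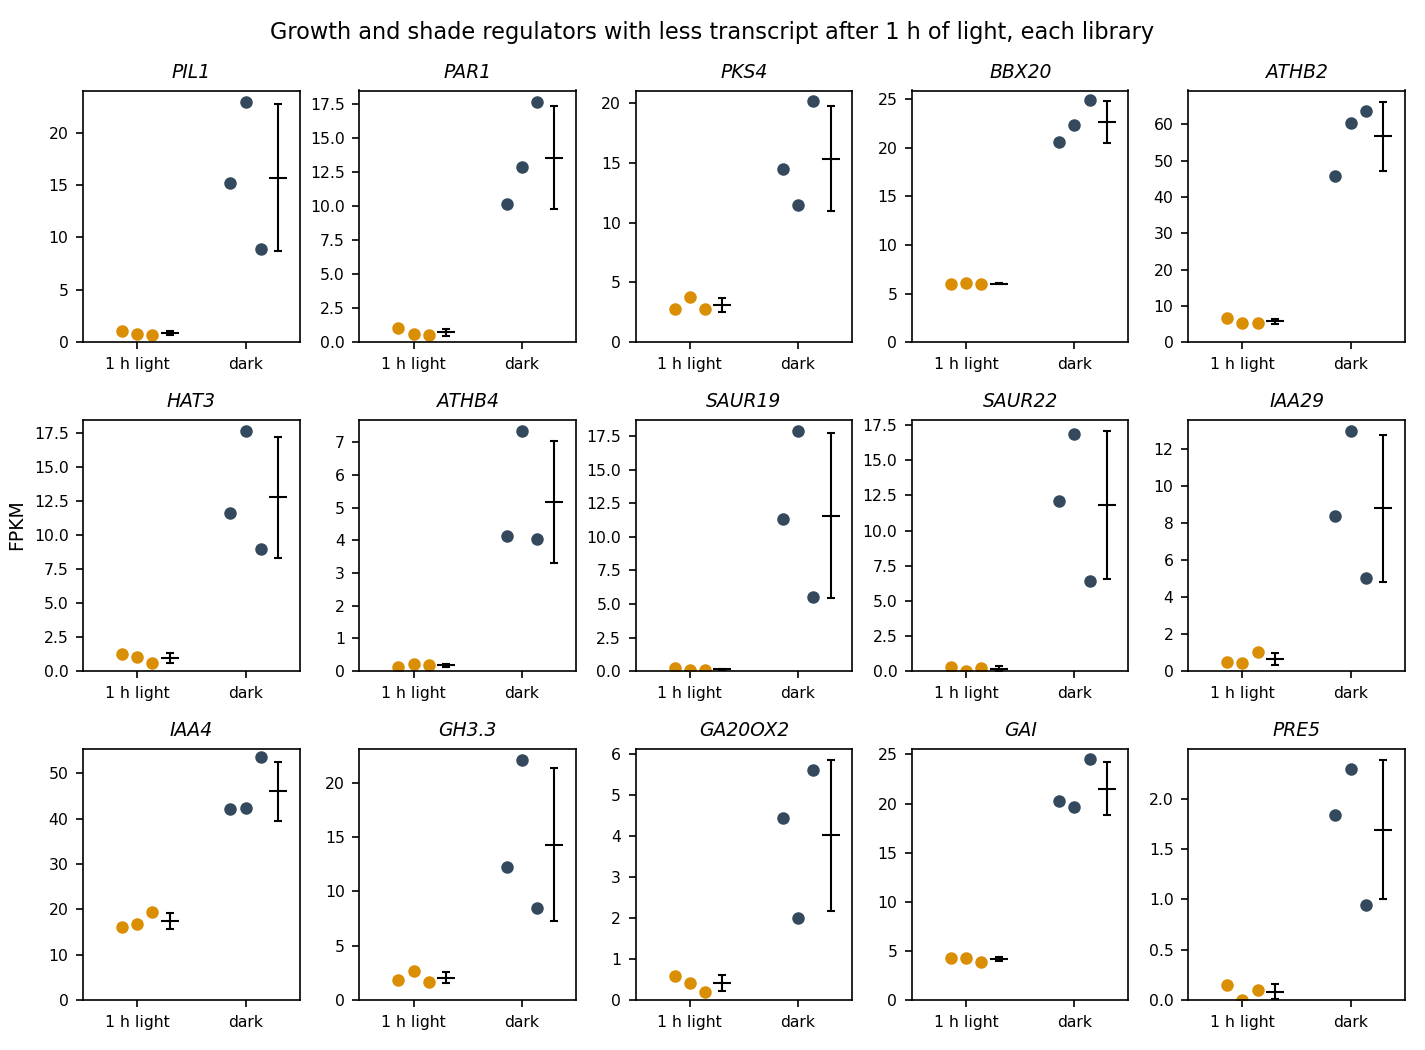
FPKM of 15 genes of light signalling, growth and hormones that fell, in each library. They are not growth promoters alone: GAI represses growth and BBX20 is known to promote photomorphogenesis. Orange points are the 3 libraries of 1 h of light, dark blue points the 3 dark ones, and the black mark is the mean with its SD. Every library of 1 h of light is below every dark one.

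A sigma factor and some genes of photoprotection rose. SIG5 (AT5G24120), the nuclear-encoded sigma factor that directs plastid RNA polymerase to promoters such as that of psbD, was at 173.05, 155.37 and 149.56 FPKM after 1 h of light and at 5.03, 5.1 and 3.89 FPKM in the dark. It was the only one of 6 tested sigma factors to rise, by 5.12 ± 0.23 on the log2 scale (SE, adjusted p = 1.44e-09 in edgeR's test). Among 21 tested genes of carotenoids and photoprotection 9 rose and none fell, with a median of 0.64. ELIP1 (AT3G22840), an early light-induced pigment-binding protein of thylakoids, was at 108.01, 44.03 and 49.21 FPKM after 1 h of light and at 2.61, 1.57 and 1.21 FPKM in the dark. ELIP2 was at 68.19, 40.84 and 41.76 FPKM after 1 h of light and at 2.84, 5.4 and 0.65 FPKM in the dark, and replicate 1 was the highest lit library for both. PSBS, the sensor of energy quenching, was at 123.9, 96.83 and 97.95 FPKM after 1 h of light and at 27.52, 25.82 and 28.11 FPKM in the dark. The one-helix proteins OHP1 and OHP2 rose by 1.65 ± 0.22 and 1.27 ± 0.12, and ZEP, which makes violaxanthin, rose by 1.36 ± 0.18.

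Most tested genes of chlorophyll synthesis and the photosynthetic machinery were not called. Of 26 tested chlorophyll synthesis genes 3 rose and 2 fell, with a median of -0.17. These are 11.5% and 7.7%, against 3.66% and 2.09% of all tested genes. CHLH, the large subunit of magnesium chelatase, was at 105.85, 75.44 and 94.69 FPKM after 1 h of light and at 34.89, 17.03 and 32.96 FPKM in the dark. CAO (AT1G44446), which makes chlorophyll b, was at 103.27, 100.59 and 85.58 FPKM after 1 h of light and at 36.82, 36.1 and 38.75 FPKM in the dark. GUN4, the activator of magnesium chelatase, was at 54.3, 26.95 and 33.83 FPKM after 1 h of light and at 17.98, 2.91 and 18.63 FPKM in the dark, and its call was lost without 1 h replicate 1, at an adjusted p of 0.121 in edgeR's test. Both that fell were the light-dependent protochlorophyllide reductases of etiolated tissue, PORA by 3.52 ± 0.54 and PORB by 2.57 ± 0.34. Of 57 tested genes of the photosystems, antennae, electron carriers and carbon fixation, 5 rose, which is 8.8%, and none fell. Without dark replicate 2 there were 4 members that fell, and without 1 h replicate 1 there was 1. RCA, Rubisco activase, was at 398.8, 342.03 and 271.41 FPKM after 1 h of light and at 108.45, 107.53 and 117.6 FPKM in the dark. FD2, the leaf ferredoxin, was at 460.4, 428.44 and 379.23 FPKM after 1 h of light and at 191.25, 185.18 and 191.79 FPKM in the dark. Of genes encoded in the organelles, 0 of 60 tested plastid genes rose and 1 fell, and none of 37 mitochondrial genes was called, in libraries made from polyA RNA.

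The flavonoid pathway, which makes UV-absorbing pigments, rose in part. Of 23 tested members 6 rose and none fell, and 3 rose without dark replicate 3 or without 1 h replicate 1. F3H (AT3G51240), flavanone 3-hydroxylase, was at 64.8, 44.59 and 35.09 FPKM after 1 h of light and at 2.01, 2.18 and 1.74 FPKM in the dark. UGT78D2, a glucosyltransferase of flavonols and anthocyanins, was at 46.46, 36.47 and 38.64 FPKM after 1 h of light and at 1.89, 1.87 and 1.72 FPKM in the dark, a log2 fold change of 4.51 ± 0.16 (SE, adjusted p = 2.1e-10 in edgeR's test). CHS, the entry enzyme, was low in both groups, at 4.26, 3.19 and 1.65 FPKM after 1 h of light and at 0.7, 0.65 and 0.39 FPKM in the dark. Its call was lost without any one of 5 libraries, all but 1 h replicate 3, with adjusted p-values in edgeR's test up to 0.114.

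Many stress-responsive regulators also rose within the hour. Of 23 tested rapid stress and touch genes 12 rose and none fell, with a median of 1.33, and between 10 and 14 rose when single libraries were left out. The list summed to 847, 852.2 and 988.6 FPKM after 1 h of light and to 342.1, 348.3 and 467 FPKM in the dark. CBF3, a DREB factor of cold responses, was at 6.15, 5.94 and 4.12 FPKM after 1 h of light and at 0.22, 0.1 and 0.26 FPKM in the dark, a log2 fold change of 4.84 ± 0.41. Its tandem neighbours rose too. CBF1 was at 5.6, 5.76 and 3.91 FPKM after 1 h of light and at 0.63, 0.35 and 0.34 FPKM in the dark. CBF2 rose by 3.22 ± 0.41, and the counts of CBF1 and CBF2 are mostly fractional. ZAT6, a zinc finger repressor, was at 194.86, 170.91 and 172.62 FPKM after 1 h of light and at 26.9, 34.77 and 20.56 FPKM in the dark. WRKY33, a defence factor, was at 97.85, 110.99 and 118.3 FPKM after 1 h of light and at 25.9, 28.52 and 45.9 FPKM in the dark. The classical touch genes TCH2 and TCH4 were not called. TCH2 was at 41.85, 34.86 and 43.03 FPKM after 1 h of light and at 22.45, 18.29 and 22.28 FPKM in the dark, while TCH4 was at 35.52, 30.35 and 42.22 FPKM after 1 h of light and at 16.79, 7.25 and 42.81 FPKM in the dark, where the groups overlap. Handling was the same hour as the light and cannot be told apart from it.

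Some heat shock genes reached high levels. Of 22 tested genes of heat shock and oxidative stress 9 rose and none fell, with a median of 1.00, between 8 and 10 rose when single libraries were left out, and 1 fell without dark replicate 1. Summed over the list, the level overlapped between the groups, at 7617, 6764 and 7275 FPKM after 1 h of light and 7111, 6847 and 5254 FPKM in the dark. HSFA2, a heat shock factor that amplifies the response, was at 75.98, 51.45 and 75.76 FPKM after 1 h of light and at 3.53, 3.41 and 3.49 FPKM in the dark, a log2 fold change of 4.35 ± 0.29 (SE, adjusted p = 6.32e-08 in edgeR's test). HSP70-4, a cytosolic chaperone, was at 1344.98, 873.69 and 1555.83 FPKM after 1 h of light and at 109.27, 108.67 and 93.57 FPKM in the dark. HSP101, the disaggregase of thermotolerance, was at 132.48, 73.35 and 162.32 FPKM after 1 h of light and at 13.18, 9.52 and 11.87 FPKM in the dark. In each of these genes 1 h replicate 2 was the lowest lit library and still above all dark ones. HSP90.1 and ROF2 rose by 3.29 ± 0.32 and 4.39 ± 0.34. DREB2A, a factor of drought and heat, was at 257.93, 267.74 and 230.18 FPKM after 1 h of light and at 67.18, 63.79 and 36.01 FPKM in the dark. APX1, the cytosolic ascorbate peroxidase, was at 491.04, 430.14 and 522.76 FPKM after 1 h of light and at 272.41, 247.4 and 262.42 FPKM in the dark, a log2 fold change of 0.95 ± 0.13 under the minimum. By the annotation in the deposited tables, 40 of 130 tested genes of the response to heat and 25 of 58 of the response to high light intensity rose and none fell. The 2 terms share members.

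A list of genes written for carbon starvation in darkness fell in part. Of 15 tested members 3 fell and none rose, and a single member fell without dark replicate 2 or without 1 h replicate 1. The largest fall of the list was that of EXO, by 2.65 ± 0.53. Whether EXO marks starvation in these seedlings was not tested. EXO was at 21.09, 11.98 and 28.99 FPKM after 1 h of light and at 112.02, 83.69 and 211.21 FPKM in the dark. DIN1, a senescence gene of dark-held leaves, was at 628.73, 809.32 and 539.99 FPKM after 1 h of light and at 1332.69, 1951.17 and 1443.25 FPKM in the dark. DIN10, a raffinose synthase family gene, was at 312.94, 411.53 and 421.23 FPKM after 1 h of light and at 867.79, 1029.76 and 760.94 FPKM in the dark. The groups did not overlap in DIN1 or DIN10, but both genes lost their call without dark replicate 2, at -0.96 each. Both also lost it without 1 h replicate 1, at adjusted p-values of 0.079 and 0.0753 in edgeR's test. DIN1 lost it without 1 h replicate 3 as well. ASN1, asparagine synthetase of the dark, was at 444.12, 631.33 and 623.47 FPKM after 1 h of light and at 795.69, 909.13 and 969.7 FPKM in the dark, lower in each lit library and not called. Of 9 reference genes none was called, though UBQ10 was at 3959.8, 3958.7 and 4318.99 FPKM after 1 h of light and at 2524.46, 2535.73 and 2201.42 FPKM in the dark, a log2 fold change of 0.79 with an adjusted p of 0.00639 in edgeR's test.

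**Figure D4:**
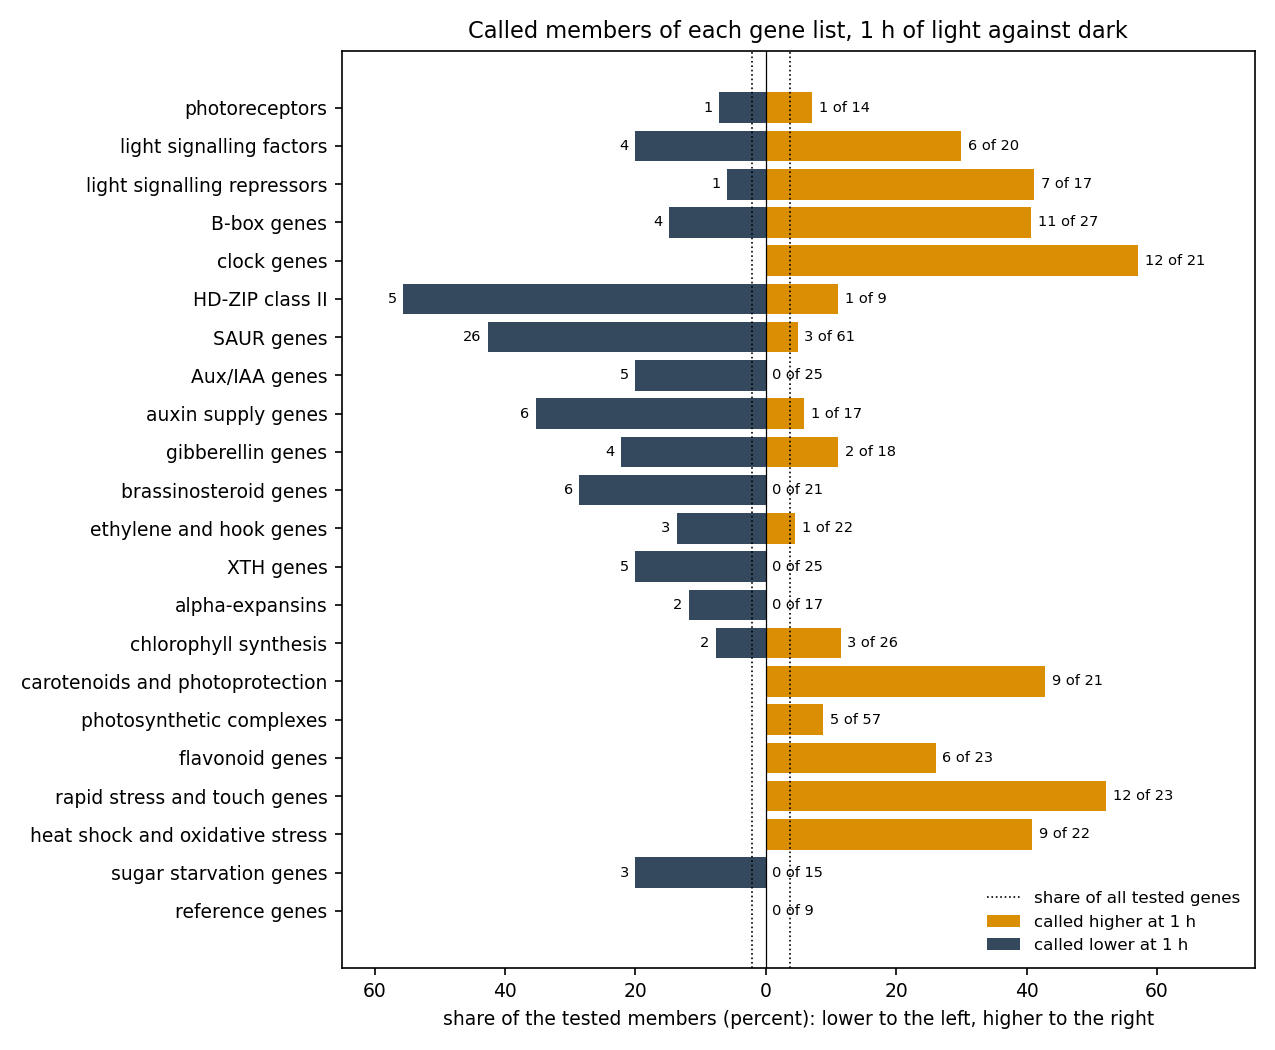
Share of the tested members of each gene list that rose (orange, to the right) or fell (dark blue, to the left) after 1 h of light against dark, in percent, with the number of members beside each bar. Dotted lines mark the share of all tested genes, 3.66% that rose and 2.09% that fell.

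Among the 12 highest and 12 lowest called genes whose groups do not overlap and whose higher group averages at least 5 CPM, the remaining ones belong to no list above. AT3G56290, annotated as a potassium transporter, was at 43.11, 33.97 and 29.94 FPKM after 1 h of light and at 1.02, 0.89 and 0.76 FPKM in the dark. CT-BMY, a chloroplast beta-amylase, was at 21.46, 16.76 and 25.34 FPKM after 1 h of light and at 0.99, 0.63 and 0.92 FPKM in the dark, at a locus that overlaps another. ABCI21 and AT1G05675, a glycosyltransferase family member, rose by 5.12 ± 0.45 and 5.10 ± 0.97, and cPT4, a prenyltransferase, rose by 4.97 ± 0.28, all 3 with mostly fractional counts. GRF7 (AT5G53660), a growth-regulating factor, was at 0.49, 0.13 and 0.1 FPKM after 1 h of light and at 6.25, 6.58 and 9.39 FPKM in the dark. RTFL21, a small ROTUNDIFOLIA-like peptide gene, fell by 3.83 ± 0.34, and AT1G74675, annotated as a transmembrane protein, fell by 4.11 ± 0.52 with mostly fractional counts at a locus that overlaps another.

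Later libraries of the series, 3 each at 2, 4, 8 and 12 h of light, show where the first hour stood in the course of each gene. These values share the dark libraries with the comparison above and are given as levels only. The genes were also chosen by their 1 h values. That choice by itself favours 1 h as the highest or lowest time, and a return towards the dark level afterwards. The counts of such genes below therefore do not show a transient response. Of the 753 genes that rose, 306 had their highest mean FPKM of the 6 times at 1 h, and 54.3% were still at least 2-fold above the dark mean at 12 h. Of the 429 that fell, 233 had their lowest mean at 1 h, 125 were back at or above the dark mean at 2 h, and 61.1% were at least 2-fold below it at 12 h. BBX30 averaged 0.0467, 33.0, 12.8, 7.59, 3.55 and 2.53 FPKM at 0, 1, 2, 4, 8 and 12 h. PRR9 averaged 7.80, 197, 58.9, 46.2, 12.4 and 4.96 FPKM at these times, and HSFA2 averaged 3.48, 67.7, 11.8, 25.1, 3.53 and 3.16 FPKM. These 3 genes were highest at 1 h. ELIP1 averaged 1.80, 67.1, 722, 337, 173 and 91.6 FPKM, and CHS averaged 0.580, 3.03, 91.8, 114, 326 and 378 FPKM, so that their 1 h level was a small part of what followed. SAUR19 averaged 11.6, 0.130, 2.48, 0.257, 0.0967 and 0.0967 FPKM, with a partial return at 2 h. ATHB2, at 56.6, 5.75, 7.16, 5.58, 4.84 and 4.33 FPKM, had values at later times close to that at 1 h.

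**Figure D5:**
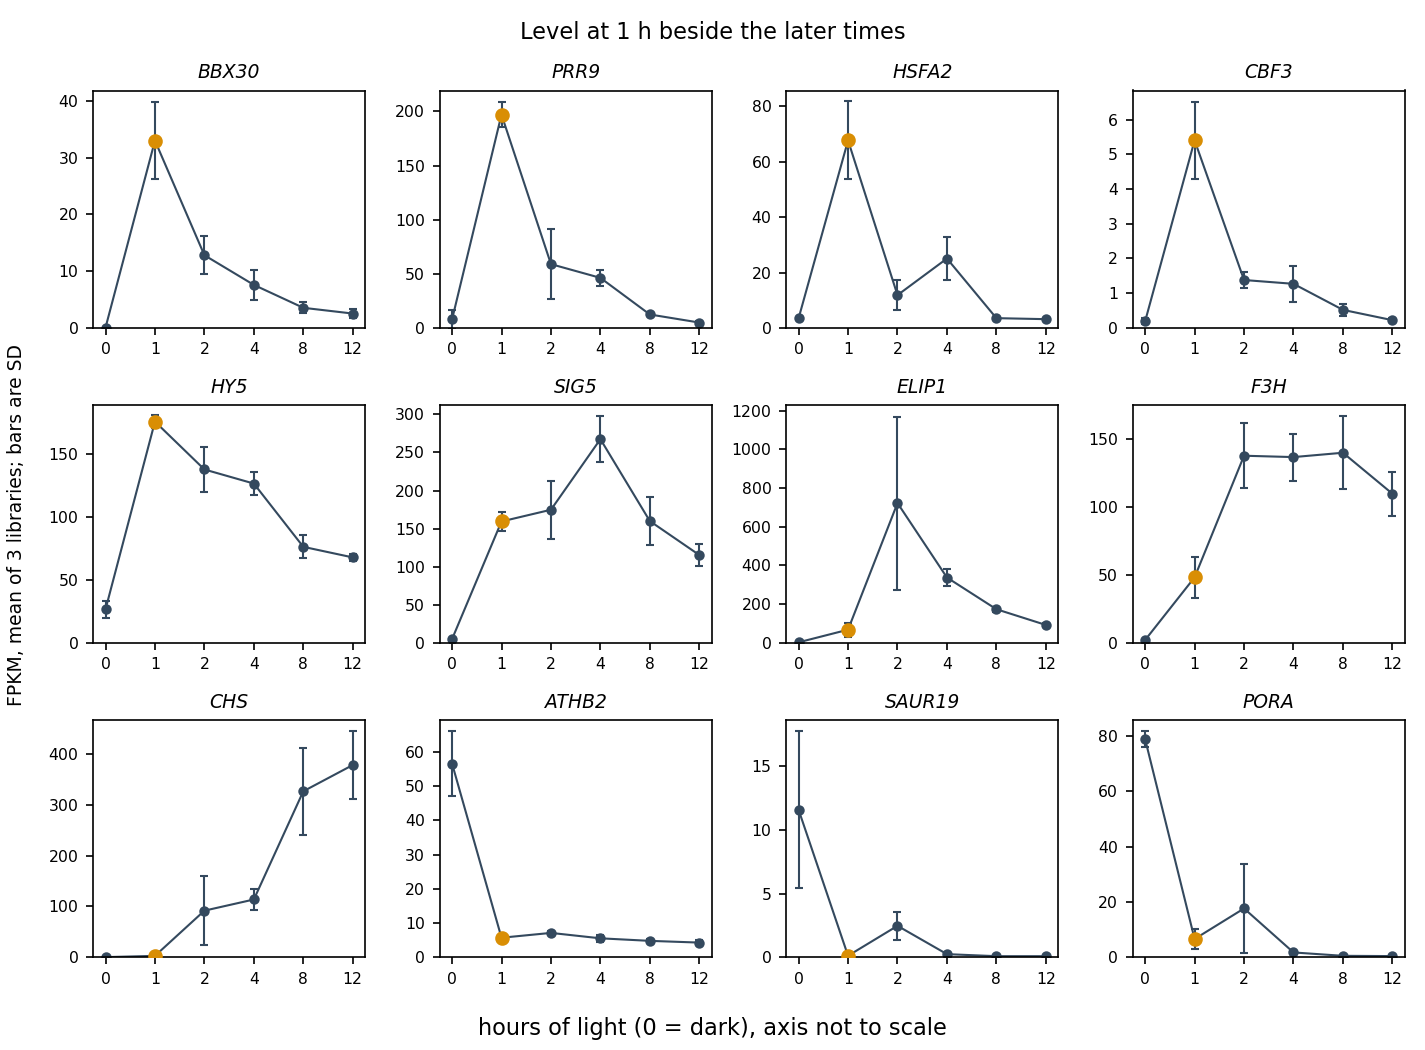
Mean FPKM with SD (n = 3 libraries) of 12 genes over the hours of light, with the 1 h point in orange and 0 as the dark group; the time axis is not to scale. BBX30, PRR9, HSFA2, CBF3 and HY5 are highest at 1 h, while ELIP1, F3H, SIG5 and CHS are higher at later times, and ATHB2, SAUR19 and PORA are below their dark level at every time of light.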

How the data were processed

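Per the labels' protocols, RNA was extracted with a Qiagen plant RNA kit and polyA libraries were sequenced on a BGISEQ-500. The authors deposited an expected count and an FPKM value for each gene in each library. The submitters' processing notes name Bowtie2, HISAT2 and RSEM, and which step each served, the genome build and the strand setting are not given in the sources used here. The members and gene lists were chosen with earlier results of these data known. Expected counts were rounded to whole numbers, filtered with edgeR's filterByExpr, scaled by TMM and fitted for all 18 libraries with 1 term per group (edgeR 4.0.16, R 4.3.3), and the contrast was 1 h of light minus dark. The SE is the size of the log2 fold change divided by the root of its F statistic. On simulated data, scored by adjusted p without the fold change minimum, the fit recovered 79% of 100 changes of 1 on the log2 scale. It recovered 98% of 100 changes of 2, and made 15 false calls in 20049 genes run. The deposited FPKM were used as they stand for levels, and as log2(FPKM + 1) in limma 3.58.1 as an alternative. DESeq2 1.42.0, other scalings, filters and left-out libraries were the others. The replicate numbers were not used to pair the samples in the main fit.

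The lists written by locus hold 456 entries, of which 433 matched by symbol, 18 by another name of the locus and 5 were dropped, and the SAUR, expansin, XTH and transcription factor families were found by symbol. Named genes are the 12 highest and 12 lowest called log2 fold changes among genes whose groups do not overlap and whose mean is at least 5 CPM (counts scaled to library size) in the higher group, up to 4 called members per list and direction, and any regulator of the light signalling, photoreceptor, B-box and clock lists. TCH2, TCH4, APX1, ASN1, UBQ10, DREB2A, HSP90.1, OHP2, ZEP, PRE6, BEE2, PIN3, IAA4, HAT2 and the genes of the closing observations fall outside this rule and were chosen after their values were seen. A floor is 3 counts over a group, and counting intervals are exact at 95% and cover counting error only. Of the loci in the files 99.2% are in the RefSeq annotation of TAIR10.1, and the start and end of those agree in 100.0%.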

Additional observations from a re-analysis of the deposited data

How the results depend on the processing

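The counts of 753 genes that rose and 429 that fell were within 1.5 times of the original under RLE size factors (758 and 433), library size alone (707 and 467), no filter (750 and 418), the 6 libraries alone (671 and 347), DESeq2 (810 and 524) and limma on log2(FPKM + 1) (591 and 291). Without a fold change minimum 2244 genes passed, 1424 higher and 820 lower. With 1 library left out at a time, between 634 and 831 rose, fewest without 1 h replicate 1, and between 280 and 452 fell, fewest without 1 h replicate 2. A fit that added a replicate block had 748 genes that rose and 393 that fell. Same-numbered libraries had deviations correlated at -0.025, 0.239 and 0.083, and differently numbered ones at between -0.239 and 0.134. With so few libraries per group these values cannot decide whether the numbers pair the samples. In the fit of the 6 libraries alone the calls of RVE2, PRE1, GA3OX1, GUN4, SPCH and CYP71A12 were lost, and with limma those of CHS, YUC3, GA20OX1, FHL, SPCH, ATHB17, AT4G34790, CYP71A12 and CYP82C2. DESeq2 ended that of BBX23, and the block those of AT4G34790, CYP71A12 and CYP82C2, and no other call of a named gene. CYP82C2 changed sign without dark replicate 3, to 0.966, against between -6.32 and -5.51 without each other library. Where a call was lost the cause was not tested. Low levels limit some values: the mean was under 1 CPM in the dark for 102 of the genes that rose, and after 1 h of light for 131 of those that fell.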

Other observations

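Groups of genes formed from the deposited descriptions held rises of chaperones. These groups were not kept apart from the lists above and can count the same genes again. Of 32 tested small heat shock proteins 10 rose, and of 16 members of the HSP70 family 5 rose, 31.2% in each. Of 112 DnaJ proteins, their partners, 10 rose, which is 8.9%, and the median log2 fold change was -0.025. No member of these groups fell. Over all tested genes 3.66% rose and 2.09% fell. AT1G59860, a small heat shock protein gene, was at 35.28, 18.42 and 48.07 FPKM after 1 h of light and at 2.99, 1.9 and 1.89 FPKM in the dark, lowest of the lit libraries in 1 h replicate 2. UBQ11 and UBQ14, polyubiquitin genes, rose by 1.33 ± 0.17 and 1.60 ± 0.13 on the log2 scale (SE, n = 3 libraries each).

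Some members of signalling and detoxification groups rose. Of 14 tested MAP kinase kinase kinases 4 rose, 28.6% against 3.66% of all tested genes, and none fell. These counts were the same in all 6 fits that left out 1 library. MAPKKK17 was at 33.19, 32.22 and 25.62 FPKM after 1 h of light and at 2.05, 1.34 and 1.07 FPKM in the dark. MAPKKK18 was at 37.56, 31.39 and 24.65 FPKM after 1 h of light and at 2.8, 2.74 and 1.33 FPKM in the dark. For both kinase genes every lit library was far above every dark one. Of 39 glutathione transferases 6 rose, which is 15.4%, and none fell, and 9 rose without dark replicate 3. GSTF8 was at 598.69, 476.22 and 685.87 FPKM after 1 h of light and at 140.21, 195.38 and 145.76 FPKM in the dark.

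Among 20 genes described as GATA factors, which leave out GNC, 4 fell and 1, CGA1, rose. These are 20% and 5%, against 2.09% and 3.66% of all tested genes. GATA2, which is known to promote photomorphogenesis, was at 4.08, 3.55 and 3.82 FPKM after 1 h of light and at 17.83, 24.2 and 18.84 FPKM in the dark. Of 114 genes of pectin enzymes and their inhibitors 9 fell and 1 rose, 7.9% and 0.9%, and 4 fell without 1 h replicate 1 or 2. The 47 histone genes had no call in edgeR's test, with a median log2 fold change of -0.202. The 335 ribosomal protein genes had 1 that rose and 2 that fell, 0.3% and 0.6% against 3.66% and 2.09% of all tested genes. Their median log2 fold change was -0.458, against -0.0632 over all tested genes.

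CYP71A12 and CYP82C2, cytochrome P450 genes of defence metabolism, were called lower on 1 library. CYP71A12 was at 0.15, 0.36 and 0.06 FPKM after 1 h of light and at 0.03, 0.48 and 62.18 FPKM in dark replicates 1, 2 and 3. CYP82C2 was at 0.15, 0.12 and 0.31 FPKM after 1 h of light and at 0.02, 0.17 and 34.95 FPKM in those dark replicates. Without dark replicate 3 the log2 fold changes were -0.43 and 0.97, and neither gene was called without that library or without any one 1 h library.

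Single-exon genes made up 23.5% of the genes that rose, 31.3% of those that fell and 14.5% of all tested genes. Without SAUR genes the share among those that fell was 27.1%.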
